A study of Homo sapiens with 4 samples.

Results

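The genes described here are 8 G protein-coupled receptors that guide B cells into, within and out of lymphoid tissue, and GNA13, a G protein subunit through which some of them signal. They were CXCR4, CXCR5, CCR6, CCR7, S1PR1, S1PR2, GPR183, P2RY8 and GNA13, taken by symbol from a deposited table of 41507 gene rows. The symbols of 8 members were row names as such. The remaining member, P2RY8, was listed once on chromosome X and once on chromosome Y with the same coordinates, as were 25 genes in all, and the paired rows were summed, which left 41482 genes.

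RNA was sequenced from SU-DHL-5 and Toledo cells, which are established cell lines of diffuse large B-cell lymphoma (DLBCL). For each line, 1 sample received DMSO, the vehicle, and 1 received JQ1 at 1 µM, a small molecule that displaces bromodomain and extra-terminal (BET) proteins from acetylated chromatin. The labels give 6 h of treatment for all 4 samples. A figure legend of the study gives a longer time. Each sample has 2 libraries, and no source used here says whether they are separate cultures, libraries or runs. They were averaged and counted as 1 replicate, so n = 1 per group, differences are given without a check over replicates, and no test across samples was run. Values are RPKM, reads scaled by transcript length and library depth, a scale per length on which levels of different genes can be compared. The libraries held from 14617583 to 17679831 mapped reads.

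Chemokine receptors place B cells in lymphoid tissue. CXCR5 and CCR7 draw them to follicles and to the T cell zone, and CXCR4 is known for retention in bone marrow and for the dark zone of germinal centers. S1PR1 responds to the lipid sphingosine-1-phosphate and promotes exit into blood or lymph, whereas S1PR2 and P2RY8 signal through GNA13 to confine B cells to the germinal center. GPR183 responds to oxysterols and guides activated B cells to the outer follicle.

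The cell type in the labels, B lymphocyte, was checked against marker genes. All 7 B lineage markers were above 0 RPKM in every sample, with a summed level of 957 RPKM in SU-DHL-5 and 935 RPKM in Toledo under DMSO. The most abundant were CD79A in SU-DHL-5 (603 RPKM) and CD79B in Toledo (444 RPKM), both signaling parts of the B-cell receptor. With JQ1 the sums were 648.5 and 621.3 RPKM, led by the same 2 genes. The 8 T and NK cell markers summed to 1.41 RPKM in SU-DHL-5 under DMSO, led by CD3E with 4 of them at 0, and to 0.0827 RPKM with JQ1, with 7 at 0. Their sum in Toledo was 0.191 RPKM under DMSO, led by NKG7 with 4 at 0, and all 8 were at 0 with JQ1. The 8 myeloid markers summed to 1.34 RPKM in SU-DHL-5 under DMSO and to 0.299 RPKM with JQ1, led by LYZ, with 5 and 4 at 0. Their sum in Toledo was 0.208 RPKM under DMSO and 0.134 RPKM with JQ1, led by CD14, with 4 and 5 at 0. As a check of the treatment labels, HEXIM1, a gene known to respond to BET inhibition, was at 4.35 and 3.89 RPKM in the DMSO libraries of SU-DHL-5 and at 22.4 and 22.9 RPKM in its JQ1 libraries. In Toledo its DMSO libraries were at 4.04 and 3.94 RPKM and its JQ1 libraries at 23.9 and 24.5 RPKM. SERPINI1, the other gene of that check, had a log2 ratio of 1.91 in SU-DHL-5 with 0.1 RPKM added to each mean. With 1 RPKM added it was 0.895, short of 2-fold. SERPINI1 was below 1 RPKM in both Toledo samples.

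With the vehicle alone, the lines carried different receptors. On the RPKM scale, SU-DHL-5 under DMSO held CXCR4 at a mean of 124, S1PR2 at 46.9, GNA13 at 28.3 and P2RY8 at 25.4, and the libraries of neighbors in this order did not overlap. CXCR5 (0.693) and CCR7 (0.0965) followed, and CCR6, S1PR1 and GPR183 were at 0. Toledo under DMSO held CXCR4 at 282, CCR7 at 68.7, GNA13 at 22.9, S1PR1 at 3.87 and P2RY8 at 1.77 RPKM, followed by S1PR2 (0.963), GPR183 (0.496), CXCR5 (0.263) and CCR6 (0.0801), again with no overlap between neighbors. Thus, CXCR4 led in both lines, and the second place belonged to S1PR2 in SU-DHL-5 and to CCR7 in Toledo. With JQ1 the first 6 places in Toledo were held by the same genes in the same order, while in SU-DHL-5 the libraries of S1PR2 and GNA13 overlapped. GPR183 and CCR6, the lowest in Toledo with JQ1, overlapped as well.

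**Figure D1:**
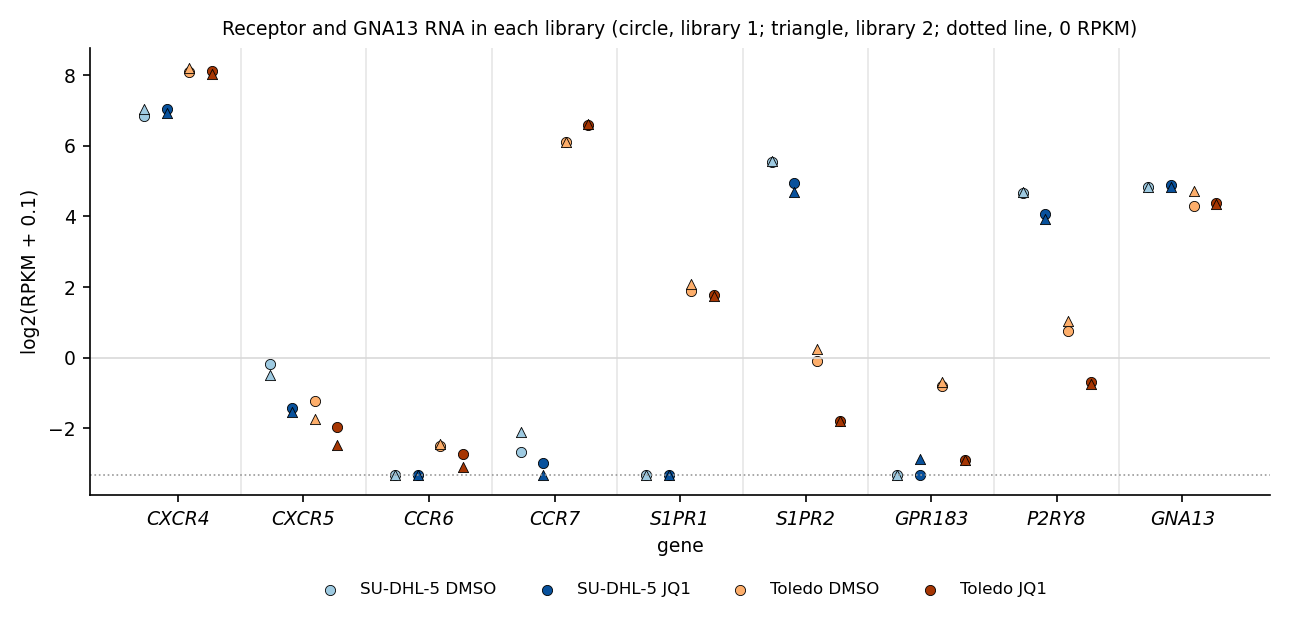
Level of each gene in each library as log2(RPKM + 0.1), by sample (color) and library (circle or triangle); the dotted line marks 0 RPKM. CCR7 and S1PR1 are higher in Toledo and at or near 0 in SU-DHL-5, S1PR2 and P2RY8 are higher in SU-DHL-5 and above 0 in Toledo, and CXCR4 and GNA13 are well above 0 in all 8 libraries.

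A gene was called when the ratio of the mean RPKM values, each plus 0.1, was at least 2-fold, 1 of the 2 samples reached 1 RPKM, and both libraries of a sample lay beyond both of the other. The added 0.1 pulls ratios of low values toward 0. In Toledo against SU-DHL-5 under DMSO, 3 members were called higher, where 16.7% of the 10069 genes tested were, and 2 were called lower, where 14.2% were. Under JQ1 the same counts were 3, where 14.4% of 9730 genes were called higher, and 2, where 15.4% were called lower. The members called higher were CXCR4, CCR7 and S1PR1, and those called lower were S1PR2 and P2RY8, under either treatment. With JQ1 against DMSO, 0 of the 9 members were called lower in SU-DHL-5, where 6.28% of 9306 genes were, and 1, P2RY8, was called lower in Toledo, where 8.03% of 9639 genes were. None was called higher, against 1.84% of genes for SU-DHL-5 and 1.93% for Toledo. At 1.5-fold, 2 members (S1PR2 and P2RY8) were called lower in SU-DHL-5, where 12.9% of genes were, and 1 member in Toledo, where 17.2% of genes were. Both JQ1 libraries were below both DMSO libraries for 4 of the 9 members and 38.4% of the genes tested in SU-DHL-5, and for 6 members and 43.6% of genes in Toledo, so this order alone sets no gene apart. They were above for 0 members and 42.2% of genes, and for 1 member and 29.5%. The filter of 1 RPKM was passed by 4 members for JQ1 against DMSO in SU-DHL-5, 5 in Toledo and 6 in the comparison of the lines under DMSO. The members with both JQ1 libraries below include some that did not pass, whereas the shares are over genes that passed. Those members were CXCR5 and CCR7 in SU-DHL-5 and CXCR5, CCR6, S1PR2 and GPR183 in Toledo.

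CXCR4, the receptor for CXCL12, lies at chr2:136114349-136118155 on GRCh38. In SU-DHL-5 it was at 115 and 132 RPKM in the DMSO libraries and at 133 and 122 RPKM in the JQ1 libraries. The Toledo libraries were at 271 and 293 RPKM with DMSO and at 279 and 263 RPKM with JQ1. All Toledo libraries were above all SU-DHL-5 libraries, and within each line the DMSO and JQ1 libraries overlapped. The log2 ratio of Toledo to SU-DHL-5 under DMSO was 1.19, with a 95% exact binomial interval from the reads of 1.15 to 1.22. The intervals given here cover counting error only. They were computed from reads without the added 0.1, so for low values they are not centered on the log2 ratio beside them. The log2 ratio of JQ1 to DMSO was 0.04 (-0.00 to 0.09) in SU-DHL-5 and -0.06 (-0.09 to -0.03) in Toledo. CXCR4 made up 62.9% of the summed RPKM of the 8 receptors in SU-DHL-5 under DMSO and 78.8% in Toledo, and 74.2% and 72.8% with JQ1.

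CCR7, the receptor for CCL19 and CCL21, lies at chr17:40553769-40565484. It had 2 and 5 reads in the DMSO libraries of SU-DHL-5 and 1 and 0 reads in its JQ1 libraries. In Toledo it stood at 68.5 and 68.9 RPKM with DMSO and at 95.9 and 98.4 RPKM with JQ1. Each JQ1 library of Toledo was thus above both DMSO libraries, whereas the gene was close to the detection limit in SU-DHL-5. With JQ1 its level was 1.41-fold higher in Toledo, a log2 ratio of 0.50 (0.45 to 0.55), which is short of the 2-fold threshold. Between the lines under DMSO, the ratio of reads was 701-fold, with a log2 interval of 8.41 to 10.77. In SU-DHL-5 the log2 ratio was -0.79 from 7 reads against 1, and its interval of -8.23 to 0.22 held 0.

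The other chemokine receptors of the group were low. CXCR5, the receptor for CXCL13 and a marker of follicular B cells, lies at chr11:118883766-118896271 and stayed below 1 RPKM in every library. In SU-DHL-5 it was at 0.779 and 0.607 RPKM with DMSO and at 0.273 and 0.242 RPKM with JQ1, from 70 and 25 reads. In Toledo it was at 0.328 and 0.198 RPKM with DMSO and at 0.158 and 0.0798 RPKM with JQ1, from 28 and 12 reads. The JQ1 libraries were below the DMSO libraries in each line, with log2 ratios of -1.15 (interval of the reads -2.14 to -0.74) and -0.73 (-2.27 to -0.13), and the gene did not pass the filter on low values. CXCR5 shares 132 bases with BCL9L, which was at 0.121 to 0.362 RPKM, and how reads there were assigned was not tested. CCR6, the receptor for CCL20, lies at chr6:167111807-167139141. It had 0 reads in all 4 SU-DHL-5 libraries, and 10 and 4 reads in Toledo with DMSO and JQ1. Against a floor of 3 reads over both libraries, it was at least 3.21-fold higher in Toledo under DMSO.

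The S1P receptors differed between the lines in opposite directions. S1PR1 lies at chr1:101236749-101241520 and S1PR2 at chr19:10221433-10231272. S1PR1, the egress receptor, had 0 reads in all 4 libraries of SU-DHL-5, where 3 reads over both DMSO libraries would be 0.0301 RPKM. The Toledo libraries of S1PR1 were at 3.60 and 4.14 RPKM with DMSO and at 3.35 and 3.23 RPKM with JQ1. It was at least 128-fold higher in Toledo under DMSO against the floor of 3 reads over both libraries, and at least 104-fold higher under JQ1. The JQ1 libraries of Toledo lay below its DMSO libraries, with a log2 ratio of -0.23 (-0.45 to -0.02). That ratio was -0.10 with library 1 alone and -0.35 with library 2 alone.

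S1PR2, the confinement receptor for the same lipid, was at 46.5 and 47.2 RPKM in the DMSO libraries of SU-DHL-5 and at 30.5 and 25.9 RPKM in the JQ1 libraries. In Toledo it was at 0.832 and 1.09 RPKM with DMSO and at 0.188 and 0.189 RPKM with JQ1. The JQ1 libraries were lower in each line and did not overlap with the DMSO libraries, and every SU-DHL-5 library was above every Toledo library. The log2 ratio of JQ1 to DMSO was -0.73 (-0.79 to -0.66) in SU-DHL-5, a level lower by a factor of 1.65 in reads. In Toledo it was -1.88 (-3.07 to -1.68), from 117 reads against 22, and the mean under DMSO (0.963 RPKM) was short of the 1 RPKM needed for a call, which library 2 alone reached. Between the lines under DMSO, the log2 ratio of Toledo to SU-DHL-5 was -5.47 (-5.89 to -5.35), 48.9-fold lower in reads.

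GPR183, the oxysterol receptor at chr13:99294535-99307495, had 0 reads in the DMSO libraries of SU-DHL-5 and 0 and 1 reads in its JQ1 libraries, so no ratio is given there. In Toledo it had 15 reads in each DMSO library and 1 read in each JQ1 library, which is 0.475 and 0.518 RPKM against 0.0344 and 0.0347 RPKM. The JQ1 libraries of Toledo were below its DMSO libraries, by a ratio of 14.3 in reads, with a log2 interval of -6.95 to -1.86 for JQ1 to DMSO. The gene did not pass the filter on low values. GPR183 lies within the span of UBAC2, which was at 11.02 and 10.5 RPKM in the DMSO libraries of Toledo and 14.4 and 14.3 RPKM in its JQ1 libraries. How reads in the shared span were assigned was not tested.

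P2RY8, a receptor that signals through GNA13 and is recurrently mutated in germinal center lymphoma, lies at chrX:1462572-1537144, in a region that chromosomes X and Y share. Its summed level was 25.1 and 25.7 RPKM in the DMSO libraries of SU-DHL-5 and 16.8 and 14.99 RPKM in the JQ1 libraries. In Toledo it was at 1.60 and 1.95 RPKM with DMSO and at 0.519 and 0.496 RPKM with JQ1. As with S1PR2, the JQ1 libraries were below the DMSO libraries in both lines. The log2 ratio was -0.68 (-0.75 to -0.60) in SU-DHL-5, short of 2-fold, and -1.63 (-2.19 to -1.43) in Toledo, where the gene was called from 277 reads against 76. In Toledo it passed the filter by its DMSO level alone, with a mean of 1.77 RPKM against 0.507 RPKM with JQ1. Under DMSO, Toledo stood at a log2 ratio of -3.77 (-4.03 to -3.67) to SU-DHL-5, 14.4-fold lower in reads. The Toledo call was lost with a pseudocount of 1 RPKM, and also with the chromosome X row alone, which does not reach 1 RPKM.

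The pair of confinement receptors, S1PR2 and P2RY8, summed to 72.3 RPKM in SU-DHL-5 under DMSO and to 44.1 RPKM with JQ1. In Toledo the same sum was 2.74 RPKM under DMSO and 0.696 RPKM with JQ1. In each line, both JQ1 libraries had a lower sum than both DMSO libraries. CCR7 and S1PR1, which guide cells to the T cell zone and out of the tissue, summed to 72.6 RPKM in Toledo under DMSO and 100.4 RPKM with JQ1. For SU-DHL-5 that sum was 0.0965 and 0.0139 RPKM, all of it CCR7.

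GNA13, the alpha subunit that couples S1PR2 and P2RY8 to RhoA, lies at chr17:65009289-65056802. In SU-DHL-5 it was at 28.5 and 28.2 RPKM with DMSO and at 29.5 and 28.2 RPKM with JQ1. Its Toledo libraries were at 19.5 and 26.3 RPKM with DMSO and at 20.6 and 20.2 RPKM with JQ1. The libraries overlapped with JQ1 in each line, and the 2 DMSO libraries of Toledo differed more than the treatments did. The log2 ratio of JQ1 to DMSO was 0.02 (-0.02 to 0.08) in SU-DHL-5 and -0.17 in Toledo, where it was 0.08 with library 1 alone and -0.38 with library 2 alone. Between the lines under DMSO the log2 ratio was -0.31, with -0.54 from library 1 alone and -0.10 from library 2 alone. Under JQ1 it was -0.50. The DMSO libraries of Toledo also stood apart over all genes, with a correlation across genes between the log2 ratio of library 2 to library 1 and transcript length (Spearman's rank correlation 0.62, a description, since genes are not independent replicates). Its part in the GNA13 value was not tested.

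**Figure D2:**
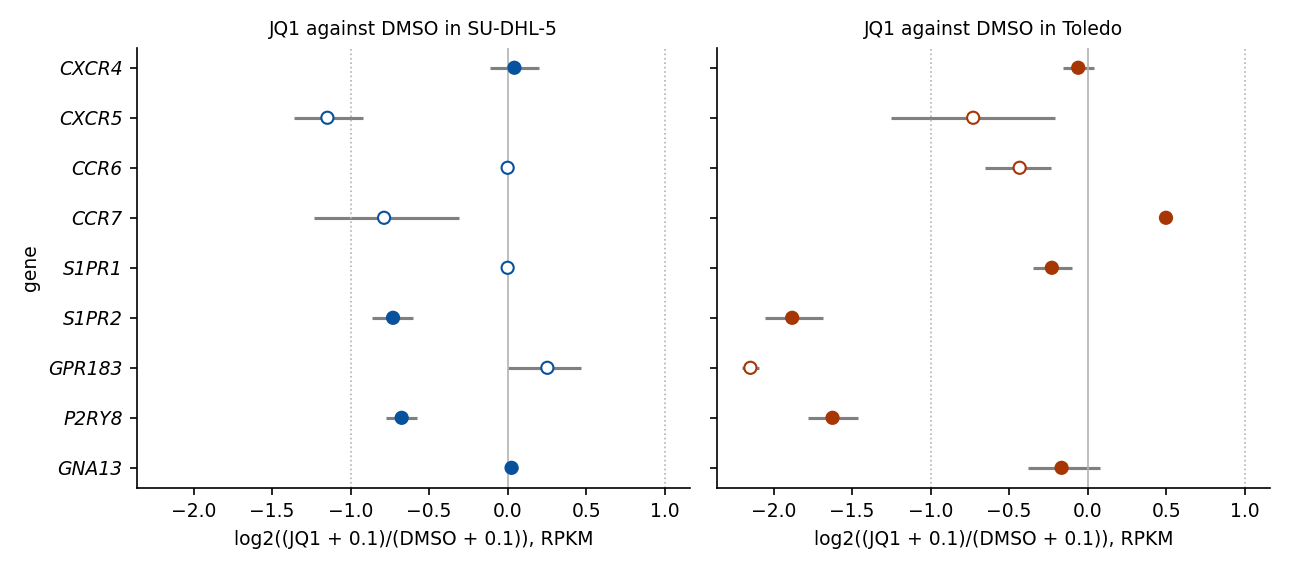
Log2 ratio of JQ1 to DMSO in RPKM plus 0.1 for each gene in SU-DHL-5 (left) and Toledo (right). Points are ratios of the means of the libraries, bars run from the lowest to the highest of the 4 pairs of a JQ1 and a DMSO library, open points mark genes with fewer than 100 reads in the compared samples, and dotted lines mark 2-fold. S1PR2 and P2RY8 are below 0 in both panels, at -0.73 and -0.68 in SU-DHL-5 and at -1.88 and -1.63 in Toledo, and CCR7 in Toledo is at 0.50.

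The log2 ratios of the lines were set side by side, as Toledo minus SU-DHL-5. The difference was at least 1 in size for 3 members, CCR7, S1PR2 and GPR183, and for CCR7 no longer so with library 1 alone. None of the 3 passed the filter in both lines, so they are not among the 8710 genes tested in both lines. The share of those genes with such a difference was not computed. For GPR183 the difference has no read-based value and rests on the pseudocount, since SU-DHL-5 had 0 reads with DMSO and 1 with JQ1. Its value was -1.15 for S1PR2 and -0.95 for P2RY8, and read-based values, which use no pseudocount, were -1.62 (95% interval of counting error -2.28 to -0.96) and -1.13 (-1.50 to -0.75). With a pseudocount of 1 the same differences were -0.01 and -0.23, so their size depends on how low values are treated. For CXCR4 it was -0.10 and for GNA13 -0.19, where the median over the 8710 genes tested in both lines was -0.10. The GNA13 difference was 0.03 with library 1 alone and -0.38 with library 2 alone. For CCR7 the difference was 1.29, with a read-based value of 3.24 (0.21 to 6.26) that rests on 8 reads in SU-DHL-5. No test across samples of these differences was possible with 1 sample per group. Among the 8710 genes, 260 were called lower in both lines and 66 higher in both.

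**Figure D3:**
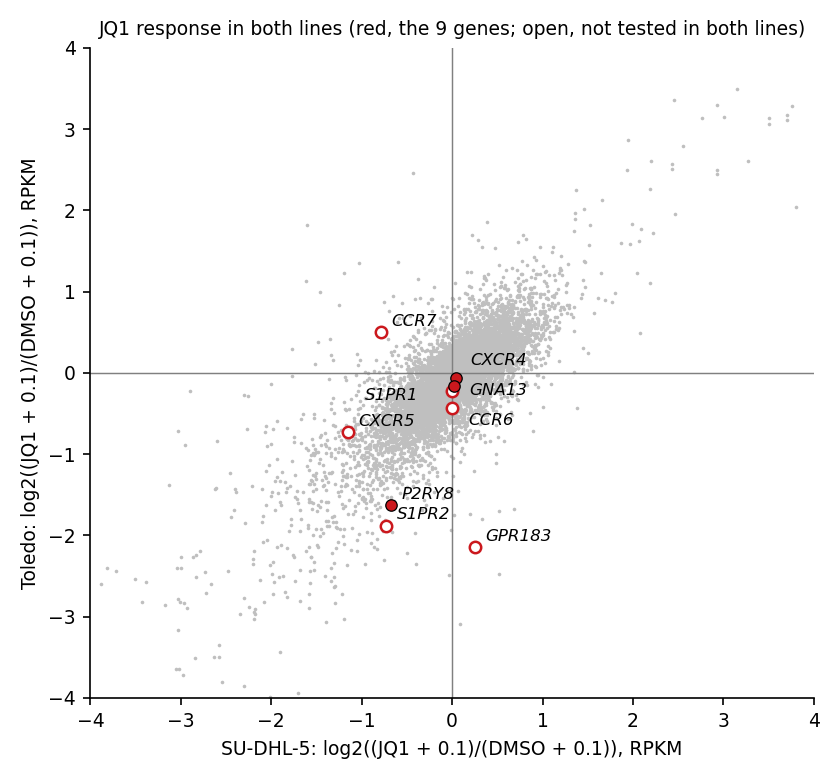
Log2 ratio of JQ1 to DMSO (RPKM plus 0.1) in SU-DHL-5 against that in Toledo, with the 9 genes in red (open, not tested in both lines) and the 8706 of 8710 genes tested in both lines that lie within the axes in grey. S1PR2 (-0.73 and -1.88) and P2RY8 (-0.68 and -1.63) lie in the lower left, and CXCR4 (0.04 and -0.06) and GNA13 (0.02 and -0.17) near the origin.

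The promoters of S1PR2 and P2RY8 are printed because these were the members called lower with JQ1 in SU-DHL-5 at 1.5-fold, and that of CXCR4 is printed as an example of a member whose libraries overlapped. RefSeq lists 1 start for S1PR2, 2 for P2RY8 and 3 for CXCR4. The 250 bases before the first start listed, which lies 59, 41 and 6 bases from the start in the deposited table, are printed 5′ to 3′ on the strand of the gene, from the RefSeq promoter table on GRCh38.p14, which matched 8 of the 9 members, all but CCR7. Capitals mark matches on either strand. The motifs searched were the GC box, GGGCGG, the CCAAT box, the TATA box, TATAAA, the E-box, CACGTG, the motif CACCC, and the octamer, ATTTGCAT. S1PR2 is at chr19:10231332-10231581, P2RY8 at chrX:1537186-1537435 and CXCR4 at chr2:136118150-136118399, all on the minus strand.
S1PR2: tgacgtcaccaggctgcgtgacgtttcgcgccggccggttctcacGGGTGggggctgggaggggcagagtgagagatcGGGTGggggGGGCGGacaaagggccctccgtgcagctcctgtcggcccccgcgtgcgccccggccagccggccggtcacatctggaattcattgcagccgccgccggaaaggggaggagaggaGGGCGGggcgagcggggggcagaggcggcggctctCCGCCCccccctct
P2RY8: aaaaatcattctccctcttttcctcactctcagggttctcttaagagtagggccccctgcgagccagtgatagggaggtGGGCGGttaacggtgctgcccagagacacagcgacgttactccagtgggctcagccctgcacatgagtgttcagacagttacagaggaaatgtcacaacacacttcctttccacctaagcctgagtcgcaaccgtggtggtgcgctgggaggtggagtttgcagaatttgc
CXCR4: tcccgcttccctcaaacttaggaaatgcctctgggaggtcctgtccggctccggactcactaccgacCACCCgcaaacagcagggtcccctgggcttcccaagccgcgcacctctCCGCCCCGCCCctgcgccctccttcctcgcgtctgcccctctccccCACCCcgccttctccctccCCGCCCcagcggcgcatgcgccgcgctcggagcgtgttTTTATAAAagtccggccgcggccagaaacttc

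The S1PR2 window held 3 GC boxes and 2 CACCC matches, the P2RY8 window 1 GC box, and the CXCR4 window 3 GC boxes, 2 CACCC matches and 2 overlapping TATA box matches, 1 on each strand. Over 35091 windows of the same length, 42.6% held a GC box, 54.7% CACCC, 32% CCAAT, 10.7% a TATA box, 6.34% an E-box and 1.63% the octamer. The GC content was 74% for S1PR2, 54% for P2RY8 and 68% for CXCR4, beside a median of 58% over all windows. S1PR2 held 27 CG dinucleotides, P2RY8 8 and CXCR4 24, beside a median of 11. Other starts gave other matches. The window of the second P2RY8 start held none of the 6 motifs, that of the second CXCR4 start held 1 CCAAT and 2 CACCC matches and no GC box, and that of the third held 1 GC box and 3 CACCC matches. Among members not printed, the CXCR5 window held 2 GC boxes and 2 CACCC matches, and the windows of the 2 GNA13 starts held 6 and 0 GC boxes. A match is a description of letters, not a site.

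Transcript values were used to see which form of each gene was measured. A single transcript held at least 90% of the summed transcript RPKM in each sample with a value for 6 of the 9 members, which were CXCR4, CCR6, CCR7, S1PR2, GPR183 and GNA13. CCR7 and GPR183 each have 1 transcript listed, so their share was 100% by construction. The CCR6 share rests on 14 reads in all libraries. The leading CXCR4 transcript held from 99.2% to 99.5%. For P2RY8 the transcript that led in SU-DHL-5 held 81.9% there under DMSO and 86.5% with JQ1. In Toledo it held 45.3% under DMSO, with 22.2% in library 1 and 64.6% in library 2, and 100% with JQ1. Another form held 64.6% in library 1 and 35.4% in library 2 of that DMSO sample, so the first did not lead in library 1. For S1PR1 in Toledo, transcripts with nearly the same ends were divided 82.9% to 17.2% in library 1 and 60.4% to 39.7% in library 2 under DMSO. For CXCR5, on few reads, the form that led in SU-DHL-5 held 86.2% there under DMSO and 100% with JQ1, and in Toledo 100% in library 1 and 0% in library 2 under DMSO and 0% with JQ1. The share of a form thus differed between libraries of a sample for all 3 genes. For S1PR1 the shares under DMSO and JQ1 were 70.8% and 71.0%, closer to each other than the libraries of either sample.

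Genes with the most similar profile were sought over the 4 samples, by the root mean square difference of centered log2(RPKM + 0.1), among 10235 genes with at least 1 RPKM in a sample. For S1PR2 the nearest 3 were CD52 (0.16), C6orf223 (0.18) and SLC2A5 (0.34). CD52, a surface glycoprotein of lymphocytes, had mean levels of 356 and 161 RPKM in SU-DHL-5 with DMSO and JQ1 and 6.73 and 1.95 RPKM in Toledo. For P2RY8 they were STAC3 (0.16), CTSH (0.16) and TP73 (0.23), for CCR7 IRF4 (0.37), S1PR4 (0.38) and MARCKS (0.39), for S1PR1 ADAM23 (0.04), ZNF711 (0.06) and PREX1 (0.06), and for CXCR4 ENTHD2 (0.02), ZC3H18 (0.02) and TAF1 (0.02). With 4 samples from 2 lines, any gene with a like gap between the lines comes close by this measure.

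The genes around the receptors were counted by list. Among 16 RGS proteins, receptor kinases, arrestins and CD69, which end or limit receptor signaling, 2 were called lower in SU-DHL-5, and 2 lower and 1 higher in Toledo. For this list and those that follow, the shares of all genes tested are 6.28% lower and 1.84% higher in SU-DHL-5, and 8.03% lower and 1.93% higher in Toledo. Of the 16, 14 genes passed the filter on low values for SU-DHL-5 and 13 for Toledo, with median log2 ratios of -0.44 and -0.32, beside 0.02 and -0.07 over all genes tested. Over all 16 the medians were -0.44 and -0.13. The medians of the lists that follow are over the genes that passed, too. In SU-DHL-5, RGS1 was at 6.67 and 11.9 RPKM with DMSO and at 3.85 and 2.49 RPKM with JQ1. Its log2 ratio was -1.52, which was -0.78 with library 1 alone and -2.21 with library 2 alone, and that of RGS16 was -1.12, or -0.93 with library 2 alone. In Toledo, RGS13, an RGS protein of germinal center B cells, had a log2 ratio of -2.22 from 53 reads against 7. That ratio was -3.15 with library 2 alone and -0.82, no longer called, with a pseudocount of 1, and library 1 alone, at 0.869 RPKM with DMSO, is under the filter. RGS19 fell from 32.5 and 34.5 RPKM to 7.76 and 7.21 RPKM, a log2 ratio of -2.15. GRK5, a kinase that phosphorylates active receptors, rose in Toledo from 1.42 and 1.25 RPKM to 3.17 RPKM in both JQ1 libraries, a log2 ratio of 1.19, or 0.84 with a pseudocount of 1.

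Of 19 sister receptors of the same families, 4 passed the filter in each line. Of those, 2 were called lower in SU-DHL-5 (ACKR4 and GPR18) and 2 in Toledo (GPR18 and LPAR5), and the medians over these few genes were -1.31 and -1.02, beside 0.02 and -0.07 over all genes tested. Over all 19, most of them low or at 0, the medians were 0.00 and -0.16, and a gene can pass the filter by its DMSO level alone, as GPR18 did in SU-DHL-5 and LPAR5 in Toledo. In SU-DHL-5, GPR18 fell from 3.09 and 3.15 RPKM to 1.12 and 0.731 RPKM, a log2 ratio of -1.65. The Toledo libraries of GPR18 fell from 13.7 and 13.8 RPKM to 5.01 and 4.81 RPKM, a log2 ratio of -1.47. ACKR4, a scavenger of CCL19 and CCL21, had a log2 ratio of -2.16 in SU-DHL-5, and LPAR5, a receptor for lysophosphatidic acid, -1.11 in Toledo, or -0.67 with a pseudocount of 1. S1PR4, a lymphocyte S1P receptor, was at 101 and 89.8 RPKM in the DMSO libraries of Toledo and had 3 reads over the DMSO libraries of SU-DHL-5, a ratio with a log2 interval of 9.15 to 12.98.

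Downstream of the receptors, 0 of 10 genes of the GNA13 to RhoA branch were called for SU-DHL-5 and 1 for Toledo, and the medians were 0.17 and 0.07, with all 10 genes past the filter. That gene was ARHGAP25, called lower with a log2 ratio of -1.32; it is known as a GTPase-activating protein for Rac, so the count is of the list as chosen and not of genes that act on RhoA. Of the 13 genes of the GNAI to Rac branch, 10 passed the filter for SU-DHL-5 and 12 for Toledo, with medians of -0.45 and -0.28 (-0.44 and -0.11 over all 13). In each line 2 were called lower, where 6.28% and 8.03% of all genes were. They were DOCK8, which is in the list but known as an exchange factor for CDC42, at -1.39 and -1.59, and WAS, an activator of actin assembly, at -1.08 and -1.16. The WAS calls were near the threshold: the log2 ratio was -0.98 in SU-DHL-5 with library 2 alone, and it was just short of 2-fold in both lines when centered on transcript length (-0.996 in Toledo). Of 12 G protein subunits, 10 passed the filter in each line, 0 were called and the medians were -0.10 and -0.11 (-0.10 and -0.04 over all 12). GNAI1, an inhibitory alpha subunit, was not tested in SU-DHL-5, where its DMSO mean was 0.994 RPKM, and it had 119 reads with DMSO and 3 with JQ1, a log2 interval of -7.54 to -3.66 for JQ1 to DMSO. Of 17 ligands and ligand enzymes, 4 passed in each line and 0 were called, with medians of -0.30 and -0.29 (-0.18 and 0.00 over all 17).

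**Figure D4:**
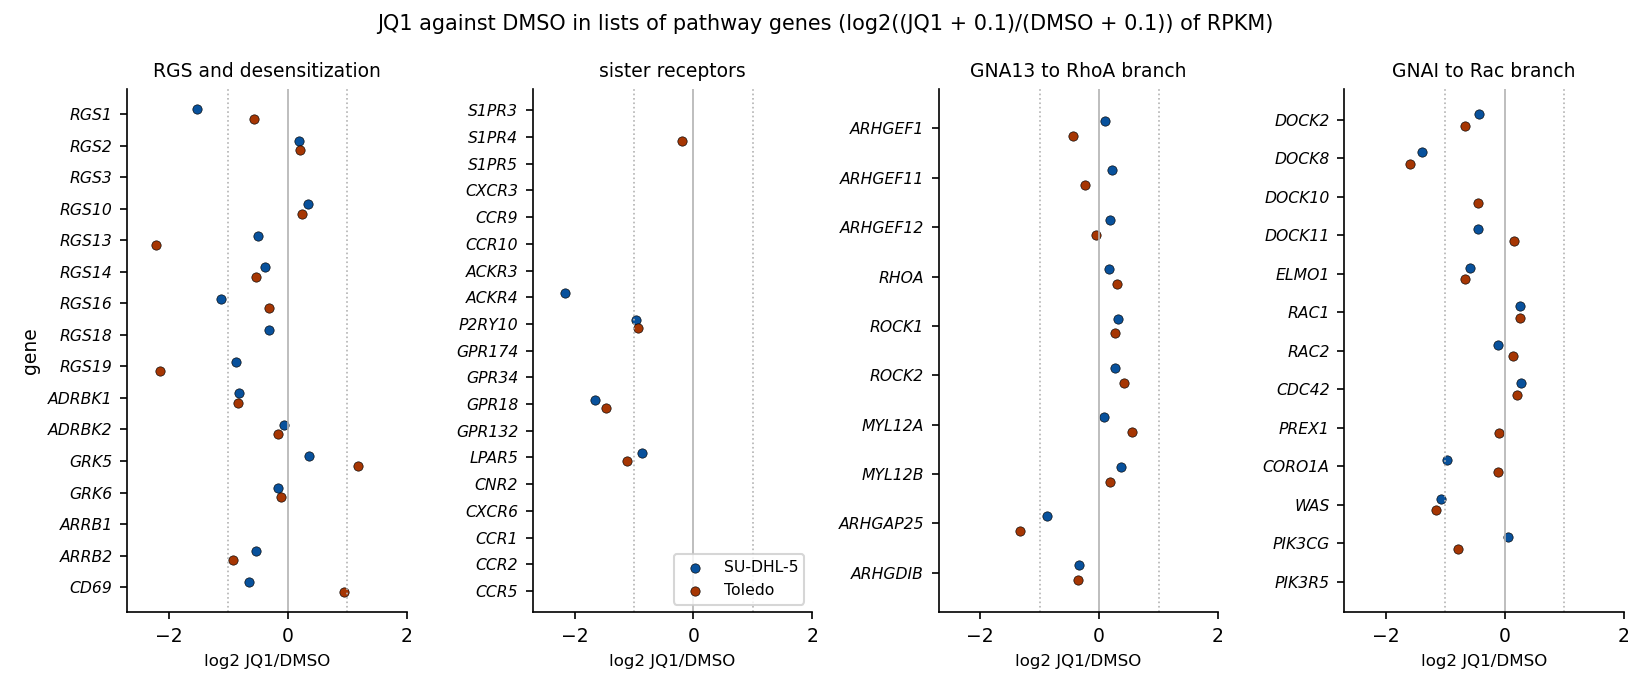
Log2 ratio of JQ1 to DMSO (RPKM plus 0.1) of the genes in 4 lists in SU-DHL-5 (blue) and Toledo (brown), for genes with at least 1 RPKM in a sample of the line; dotted lines mark 2-fold. DOCK8, WAS and GPR18 lie past the lower line in both cell lines, and most genes of the RhoA branch lie near 0.

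Some of the transcription factors linked to the receptors and some markers of B cell stages differed between the lines. KLF2, a regulator of S1PR1, was at 21.8 and 26.2 RPKM in the DMSO libraries of Toledo and at 56.6 and 58.9 RPKM in its JQ1 libraries, a log2 ratio of 1.26, and had 1 read in each SU-DHL-5 sample. It was the 1 gene of 4 in this list called with JQ1. The medians were 0.29 for SU-DHL-5, where 3 passed the filter (0.18 over all 4), and 0.68 for Toledo, where all 4 did. Under DMSO, 6 of the 7 germinal center markers, S1PR2 among them, were called lower in Toledo than in SU-DHL-5, where 14.2% of all genes were, and 2 of them, LMO2 and SERPINA9, were at 0 in Toledo. The seventh, MME, was not called. The list summed to 35.7 RPKM in Toledo under DMSO and to 21.5 RPKM with JQ1, led by MME in both samples. Of the 5 plasma cell markers, 3 were called higher in Toledo, where 16.7% of all genes were, and SDC1 was lower there (0.179 RPKM against 0.938 RPKM) but did not pass the filter, nor did PRDM1. The list summed to 18.9 RPKM in SU-DHL-5 and 129.8 RPKM in Toledo, both led by XBP1. With JQ1 it summed to 7.09 and 88.5 RPKM, led by XBP1 and IRF4.

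Between the lines under DMSO, genes of most pathway lists were called in both directions, beside 14.2% of all genes lower and 16.7% higher in Toledo. Of the 16 genes that end or limit receptor signaling, 5 were lower in Toledo and 5 higher, and RGS13 was at 107.5 RPKM in SU-DHL-5 against 1.01 RPKM in Toledo. Among the 5 called lower, RGS14 (-0.86) and GRK5 (-0.955) fell short of 2-fold with a pseudocount of 1. The sister receptors had 2 of 19 lower and 3 higher, the GNAI to Rac branch 1 of 13 lower and 4 higher, and the RhoA branch 1 of 10 lower and 1 higher. Among the 4 called higher, DOCK8 (0.92) and DOCK11 (0.83) fell short of 2-fold with library 1 alone. ARHGAP25, the gene of the RhoA branch called lower, was at -0.93 with a pseudocount of 1. Of the 12 G protein subunits 1 was lower and 3 were higher, of which GNA11 was at 0.94 with a pseudocount of 1. Among the 17 ligands and ligand enzymes, 1 was lower, SGPP1, a phosphatase of sphingosine-1-phosphate, at 37.4 RPKM in SU-DHL-5 and 5.10 RPKM in Toledo. Of the 4 transcription factors, BCL6, a repressor that defines the germinal center program, was lower in Toledo (38.2 against 2.48 RPKM), and KLF2 was higher, while FOXO1 and BACH2 were not called.

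With JQ1, some markers of B cell stages were called lower too. In SU-DHL-5, 3 of 7 B lineage markers were called lower and in Toledo 4, with medians of -0.71 and -1.11, where 6.28% and 8.03% of all genes tested were called lower. The log2 ratios were -1.99 and -1.47 for MS4A1, which encodes CD20, and -1.47 and -1.11 for CD22 in SU-DHL-5 and Toledo, and BLK was at -2.49 in Toledo and at -0.03 in SU-DHL-5. The Toledo value of CD22 was -0.93 with a pseudocount of 1 and -0.99 when centered on transcript length, and was then not called. Of the 7 germinal center markers, 2 were called lower in SU-DHL-5, LMO2 (-2.69) and SERPINA9 (-1.54), and 0 of the 3 that passed the filter in Toledo. Other markers were higher with JQ1, short of 2-fold. Both JQ1 libraries were above both DMSO libraries for BCL6 (0.29) and MYBL1 (0.27) in SU-DHL-5. In Toledo the same held for MYBL1 (0.37) and IRF4 (0.26). The Toledo value of MYBL1 ran from 0.01 to 0.68 over the pairs of a JQ1 and a DMSO library. PAX5 had a log2 ratio of 0.27 in Toledo, with overlapping libraries. In SU-DHL-5 the PAX5 ratio was -0.64, with both JQ1 libraries below both DMSO libraries. Of the 5 plasma cell markers, 2 passed the filter for SU-DHL-5 and 3 for Toledo, and 2 were called lower in SU-DHL-5, XBP1 (-1.20) and TNFRSF17 (-2.36), and 1 in Toledo, TNFRSF17 (-4.55). Among markers of other cells, CD3E (1.01 RPKM to 0.0827 RPKM) and LYZ (1.15 RPKM to 0.145 RPKM) were called lower in SU-DHL-5, and none of these markers in Toledo. Their log2 ratios of -2.61 and -2.35 were -0.90 and -0.91, not called, with a pseudocount of 1, and library 2 of CD3E with DMSO, at 0.934 RPKM, is under the filter. The part of these marker changes in the lower S1PR2 and P2RY8 levels was not tested, and fewer cells of a kind and less RNA per cell cannot be told apart in bulk samples.

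**Figure D5:**
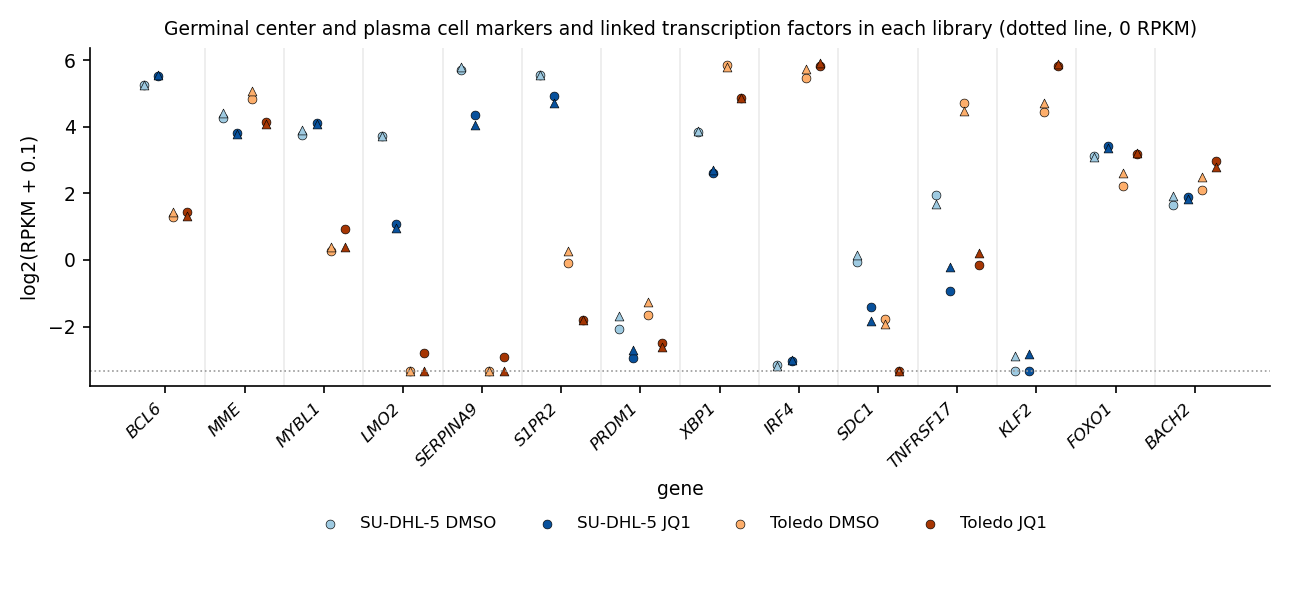
Level of germinal center markers, plasma cell markers and linked transcription factors in each library as log2(RPKM + 0.1), by sample (color) and library (circle or triangle); the dotted line marks 0 RPKM. LMO2 and SERPINA9 are at or near 0 in Toledo and IRF4 and KLF2 at or near 0 in SU-DHL-5.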

How the data were processed

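The lines SU-DHL-5 and Toledo, given DMSO or JQ1 at 1 µM (6 h per the labels), were sequenced from total RNA with a stranded mRNA library kit, as 1 sample per line and treatment with 2 libraries each. The authors deposited RPKM for genes and for transcripts, scaled to feature length and mapped reads. The submitters' processing notes name CASAVA 2.0 and the builds GRCh38 and hg38; the aligner, the counting and the annotation are not given in the sources used here. Of 32645 symbols matched on the same chromosome, 99.9% overlapped GRCh38.p14.

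No reads were processed. Mapped reads per library were recovered as the total that made values of single-exon genes whole reads, and the length of each gene as the smallest whole number from 100 to 40000 bases that made its 8 values whole within 0.02 reads, with at least 1 read where RPKM is above 0. Such a length was found for 14942 of 14944 genes with a value, which is not a rate of true lengths, since for genes of few reads a smaller length can fit. Reads served for intervals (95%, exact binomial, given mapped reads), for the floor of 3 reads and for a filter, and no count model was fitted.

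Ratios are log2((a + 0.1)/(b + 0.1)) of mean RPKM, and the call is defined in the text. The members, lists, markers and calls were chosen with earlier results of these data known. Named genes are the 9 members, genes of a list called in either line (at most 4, by absolute log2 ratio) and, for members with at least 1 RPKM in a sample and a range of at least 1, the 3 nearest profiles; SGPP1, RGS16, BCL6, CD69 and other genes outside this rule were named after their values were seen. GRK2, GRK3 and PLPP3 were matched under older symbols by RefSeq synonyms. Alternatives were the pseudocount (0.01 and 1), the filter (none, or 100 reads in a library), each library alone, scaling by the median ratio, summed transcripts, centering on transcript length in 20 bins, 1.5-fold and 4-fold, and, added after seeing the data, the chromosome X row of P2RY8 alone. Calls and read recovery were tested on simulated data, in which the libraries of a sample differed by counting error only. The deposited libraries differ by more than that, so the simulation gives no rate of false calls for these data. The work ran in Python 3.11.15, with scipy 1.17.1 for intervals, pandas 2.3.3, numpy 2.4.6 and, for plots, matplotlib 3.10.9.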

Additional observations from a re-analysis of the deposited data

Results flagged for a closer look

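For 2 genes among 87 members and list genes looked at, each JQ1 library was lower than each DMSO library for SU-DHL-5 and higher for Toledo, and the log2 ratios were at least 1 apart. The share of all genes that meet this rule was not computed. Both JQ1 libraries were below for 38.4% of genes tested in SU-DHL-5 and above for 29.5% in Toledo. Neither of the 2 genes, CCR7 and CD69, was called in either line, and CCR7 in SU-DHL-5 is under the filter of 1 RPKM. The log2 ratio of CCR7 was -0.79 for SU-DHL-5 and 0.50 for Toledo, a difference of 1.29 (0.79 with library 1 alone, 0.61 with a pseudocount of 1), and the SU-DHL-5 value rests on 7 reads against 1, with an interval of -8.23 to 0.22 that held 0. CD69, a membrane protein known to oppose S1PR1 at the cell surface, had a log2 ratio of -0.65 for SU-DHL-5, from 7.94 and 11.5 RPKM with DMSO to 7.01 and 5.31 RPKM with JQ1, which was -0.18 with library 1 alone and -1.11 with library 2 alone. Its Toledo libraries were at 33.5 and 33.9 RPKM with DMSO and at 68.6 and 61.4 RPKM with JQ1, a log2 ratio of 0.94, and the difference between the lines was 1.60. It was named after its values were seen. Neither difference was tested across samples, since each group has 1 sample.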

How the results depend on the processing

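The share of all genes with JQ1 log2 ratios at least 1 apart between the lines was not computed for any setting. With a pseudocount of 0.01, 5 members had JQ1 log2 ratios at least 1 apart between the lines (3 as reported). With a pseudocount of 1, 0 did. In that setting 0 members were called lower with JQ1 in Toledo (1 as reported), where 4.88% of genes were. Without a filter on low values, 1 was called lower with JQ1 in SU-DHL-5 (CXCR5, against 0 as reported) and 3 in Toledo (S1PR2, GPR183 and P2RY8). Under that setting 2.32% and 3.11% of all 41482 genes were called lower. With library 2 alone, 2 members were called lower in Toledo (S1PR2 and P2RY8), where 9.34% of genes were. At 1.5-fold, 2 members were called lower in SU-DHL-5, beside 12.9% of genes, and at 4-fold, 0 in Toledo, beside 2.24%. With the chromosome X row of P2RY8 alone, an alternative chosen after seeing the data, 0 members were called lower in Toledo, beside 8.02% of genes. A changed threshold, no filter or fewer reads belong to the construction of the 1.5-fold, 4-fold, unfiltered and chromosome X settings. For the others the cause was not tested. The counts of members between the lines under DMSO stayed within 1.5 times those reported in all settings run. Of 976 values of single genes under the settings, 217 moved and 0 reversed among called values. For the members, 78 of 328 moved. A value counted as moved when it changed and lay outside its counting interval, or changed and had no interval. The differences between the lines of CCR6, S1PR1 and GPR183 have no interval. The log2 ratio of S1PR2 with JQ1 ranged from -0.87 to -0.60 for SU-DHL-5 and from -2.29 to -0.72 for Toledo, and that of P2RY8 from -0.81 to -0.58 and from -1.79 to -0.88. The depth limits CCR6, GPR183, CXCR5 and, in SU-DHL-5, CCR7, which had at most 70 reads per sample.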
